A study of Mus musculus with 26 samples.

Results

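Germline stem cells (GSC), mouse spermatogonial stem cells grown in culture, were compared with embryonic stem cells (ESC) in 6 of the 26 samples of an Illumina BeadChip study of total RNA. The members were chosen by their labelled cell type: GSC line 1 and GSC line 2, with arrays a and b each, against 1 ESC line with arrays a and b. The arrays of a line are technical repeats, so the comparison rests on 2 lines against 1. All groups share the OG2 strain background, a mouse line known for carrying a GFP transgene under the Pou5f1 promoter, and the labels give no age, passage or medium. The other samples serve as a backdrop: 9 further pluripotent lines and 1 fibroblast line. The 9 are 4 iPSC lines reprogrammed from GSC, 4 gPSC lines, which are pluripotent cells obtained from the germ line, and 1 Fib-iPSC line made from fibroblasts. The iPSC and gPSC lines also enter through the pooled spread between lines, to which a group of 1 line adds nothing.

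GSCs are the unipotent stem cells of the male germ line. In the testis they answer to GDNF, a growth factor of Sertoli cells that signals through the receptor RET and its partner GFRA1, and they keep transposons silent with small piRNAs bound by PIWI proteins. ESCs come from the inner cell mass of the blastocyst and can form all tissues. Their state rests on a circuit of transcription factors around POU5F1 (also called OCT4), SOX2 and NANOG, which bind DNA together at composite sites.

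The gene that differed most among the core factors, Nanog, carries such a composite site just before its start. In the window below, from 250 bases before to 50 bases after the start (RefSeq, GRCm38.p6, chr6:122707239-122707538, + strand), the capitals mark the Oct-Sox composite, TTTGCAT followed by any base and ACAATG, which began at position -75 from the start. Both strands were searched, and Nanog was the only 1 of 8630 tested genes with a window (0.0116%) that held these letters. The search took this exact form within the windows only, so variant forms and sites farther from a start were not looked for.
Nanog: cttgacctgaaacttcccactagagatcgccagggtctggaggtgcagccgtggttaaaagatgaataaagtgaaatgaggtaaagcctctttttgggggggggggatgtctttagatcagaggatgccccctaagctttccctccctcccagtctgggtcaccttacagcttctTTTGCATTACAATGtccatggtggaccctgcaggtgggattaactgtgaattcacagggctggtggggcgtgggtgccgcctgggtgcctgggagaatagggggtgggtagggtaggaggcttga
The germline promoters that follow are shown because their genes moved together. They were picked as examples from the 10 of 34 genes with a window (29.4%) where a window held the E-box CACGTG. These 34 are spermatogonial, germ cell RNA, meiosis and testis genes called higher in GSC. A gene can have several windows, 11136 in all for the 8630 tested genes, and counts if any of them holds the letters. The E-box was found in 1006 of all 8630 tested genes with a window (11.7%), in 138 of 915 such genes called higher (15.1%) and in 84 of 850 called lower (9.88%). Capitals mark each E-box, and the windows of the genes below are chr2:25847199-25847498, chrX:134476441-134476740 and chr13:112652261-112652560 (- strand) and chr15:88982744-88983043 (+ strand) in that order.
Sohlh1: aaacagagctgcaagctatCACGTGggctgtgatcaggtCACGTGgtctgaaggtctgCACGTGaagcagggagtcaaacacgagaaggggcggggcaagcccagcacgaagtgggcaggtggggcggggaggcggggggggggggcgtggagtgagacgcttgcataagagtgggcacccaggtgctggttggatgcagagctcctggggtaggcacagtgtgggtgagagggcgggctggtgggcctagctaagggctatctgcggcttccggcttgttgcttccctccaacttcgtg
Taf7l: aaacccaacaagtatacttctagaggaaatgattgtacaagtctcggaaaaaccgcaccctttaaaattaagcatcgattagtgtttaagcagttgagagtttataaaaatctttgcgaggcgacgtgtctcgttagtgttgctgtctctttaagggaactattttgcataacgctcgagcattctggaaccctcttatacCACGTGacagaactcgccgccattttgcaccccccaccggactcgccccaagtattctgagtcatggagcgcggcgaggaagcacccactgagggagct
Ddx4: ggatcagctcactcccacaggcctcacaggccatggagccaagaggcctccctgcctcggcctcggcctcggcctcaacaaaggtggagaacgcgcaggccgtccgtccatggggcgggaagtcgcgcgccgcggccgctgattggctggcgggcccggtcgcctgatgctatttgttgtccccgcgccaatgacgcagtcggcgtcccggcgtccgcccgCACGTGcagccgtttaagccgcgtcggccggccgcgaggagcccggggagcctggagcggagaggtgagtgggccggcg
Mov10l1: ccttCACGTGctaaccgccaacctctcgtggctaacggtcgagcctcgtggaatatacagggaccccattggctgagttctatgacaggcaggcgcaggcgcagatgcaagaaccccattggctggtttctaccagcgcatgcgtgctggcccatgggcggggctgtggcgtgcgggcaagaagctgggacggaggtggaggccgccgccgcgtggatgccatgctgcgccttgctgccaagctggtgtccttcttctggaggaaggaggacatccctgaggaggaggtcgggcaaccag
In the windows shown, Sohlh1 had 3 E-boxes and the others 1 each. The E2F motif TTCCCGC, searched on both strands, was in 6 of the 34 germline genes with a window (17.6%) and in 800 of all 8630 such genes (9.27%). A match describes letters only, and the shares were not tested.

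Between 12962 and 13776 of 25697 probes were detected per array in the 6 samples, with median intensities of 90.11 to 101.4. All levels below are log2 values after background correction and normalization, on which the lowest detected signal of an array, its floor, lay between 4.57 and 4.67. Differences are GSC minus ESC with their standard error (SE), and a call required both a 2-fold difference and an adjusted p (limma, Benjamini-Hochberg over all genes) under 0.05. The arrays of 1 line correlated across genes at r = 0.9945, 0.9961 and 0.9956. Root mean square differences were 1.09 between GSC line 1 and ESC and 1.07 between GSC line 2 and ESC, against 0.226 between the GSC lines and 0.223, 0.186 and 0.198 between arrays of 1 line. Of 10660 genes tested, 2187 were called (20.5%), 1120 of them higher (10.5%) and 1067 lower (10.0%) in GSC, and the median difference over all genes was 0.02. The 4 GSC arrays lay entirely above or below both ESC arrays at 71.8% of genes, so separation of the arrays alone sets no gene apart. ESC, with 1 line, has no spread of its own and was assumed to vary like the groups with several lines. A second fit used all arrays, with the array letter as a block and the line as a random block. It is called the blocked fit below and is given where it changed a call or moved a count by over 1.5 times.

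**Figure D1:**
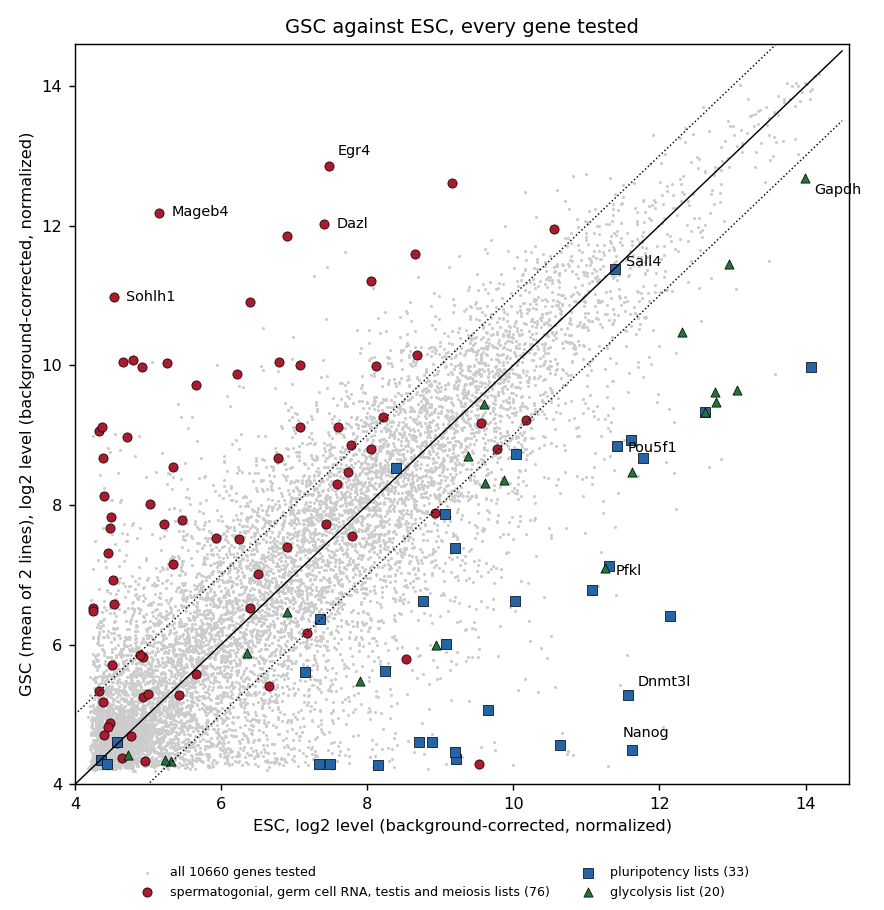
Mean log2 level in GSC (vertical, 2 lines) against the log2 level in ESC (horizontal, 1 line) for 10660 genes. The solid line marks equal levels and the dotted lines a 2-fold difference. Red circles (spermatogonial, germ cell RNA, testis and meiosis genes) lie mostly above the band, for example Sohlh1 at 10.97 in GSC and 4.53 in ESC, while blue squares (pluripotency genes) and green triangles (glycolysis genes) lie mostly below it, for example Nanog at 4.49 in GSC and 11.62 in ESC.

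The cell types fitted their labels in part. Of 14 markers set for GSC, 13 were tested and all 13 were detected on every GSC array, but 10 were also detected on both ESC arrays. Among them Ret, Bcl6b, Ddx4, Sohlh1 and Taf7l were called higher in GSC and Etv5 was called lower. Of 12 markers set for ESC, 11 were tested, all were detected on both ESC arrays, and 9 were called lower in GSC (all but Klf4 and Tdgf1). Zbtb16, Kit, Tet1 and H19 were not analysed here.

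Most core pluripotency factors were lower in GSC, several of them near the floor. Of 22 listed factors 17 were tested, of which 11 were called lower and 0 higher, with a median difference of -2.63. Nanog read 4.41, 4.64, 4.44 and 4.46 on the GSC arrays, against 11.64 and 11.61 on the ESC arrays, a difference of -7.13 ± 0.44 (140-fold, adjusted p = 1.17e-05). It was detected on 1 of 4 GSC arrays. Every GSC value thus lay near the floor, and the ESC value lay within the 10.79 to 12.04 of the 9 other pluripotent lines. Sox2, the partner of POU5F1 on composite sites, read 4.73, 4.52, 4.59 and 4.57 on the GSC arrays and 8.76 and 8.66 on the ESC arrays, and 2 of 4 GSC arrays detected it (-4.10 ± 0.41, adjusted p = 0.000161). Esrrb, an orphan nuclear receptor of the naive state, kept a measurable level in GSC: it read 6.60, 6.45, 6.32 and 6.25 there, against 12.17 and 12.11 in ESC (-5.74 ± 0.45, adjusted p = 3.93e-05). Utf1, a chromatin factor of ESCs, differed by -4.58 ± 0.24, and Klf5, a zinc finger factor, by -4.30 ± 0.31, with GSC means of 5.07 and 6.78 and ESC levels of 9.65 and 11.08. Zfp42, the classical ESC marker also called Rex1, averaged 6.62 in GSC and 10.02 in ESC. The other called factors were Klf2, Nr5a2 and Tbx3, with differences of -3.10, -2.63 and -1.83, and Zscan10, which was detected on no GSC array and was at least 11.7-fold lower. The call of Tbx3 ended without GSC line 1 (adjusted p = 0.0586).

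Pou5f1, the factor at the centre of the circuit, was expressed in both cell types and differed between the GSC lines more than any other gene. GSC line 1 read 9.74 and GSC line 2 7.94 (9.63, 9.85, 7.96 and 7.92 on the 4 arrays), against 11.51 and 11.33 on the ESC arrays. The difference of -2.58 ± 0.56 (adjusted p = 0.00835) became -3.48 without GSC line 1 and -1.68 without GSC line 2, and the call held in both cases. Sall4, a zinc finger factor shared by germ cells and ESCs, read 11.44, 11.29, 11.37 and 11.39 in GSC and 11.33 and 11.45 in ESC. Lin28a, an RNA-binding blocker of let-7 maturation, read 8.48, 8.76, 8.29 and 8.58 in GSC and 8.28 and 8.51 in ESC. Neither passed the test, with differences of -0.02 ± 0.34 and 0.13 ± 0.96, and their arrays overlapped between the groups. Klf4, a reprogramming factor, averaged 8.72 in GSC and 10.03 in ESC (-1.31 ± 0.47) and missed the threshold (adjusted p = 0.0635, against 0.0113 in the blocked fit). Myc was detected on no array of either group.

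Downstream of these factors the separation was as wide. Of 22 listed pluripotency effectors 16 were tested, 12 of them lower and 0 higher in GSC, with a median of -3.25. Dnmt3l, the cofactor of the de novo DNA methyltransferases, read 4.73, 4.91, 5.70 and 5.75 on the GSC arrays and 11.55 and 11.60 on the ESC arrays (-6.30 ± 0.48, adjusted p = 3.43e-05), and GSC line 2 lay above line 1 on both arrays. L1td1, an RNA-binding protein derived from a LINE-1 element, read 4.57, 4.59, 4.59 and 4.50 in GSC and 10.56 and 10.72 in ESC (-6.08 ± 0.45, adjusted p = 3.17e-05). Gdf3, a ligand of the TGF-beta family, was detected on no GSC array and was at least 24.4-fold lower there. Eras, a Ras-like GTPase of ESCs, averaged 4.60 in GSC and 8.88 in ESC. A second kind of gene stayed well expressed in GSC while still differing: Dppa5a, an RNA-binding protein, averaged 9.97 in GSC and 14.08 in ESC (-4.11 ± 0.23), and Dppa4, a chromatin protein, 8.93 in GSC and 11.61 in ESC (-2.68 ± 0.20). Fbxo15, Slc2a3, Dppa3 and Alpl had differences between -4.18 and -2.14, and Jam2 and Fgf4 were detected on no GSC array, at least 7.39-fold and at least 6.66-fold lower. Jam2 was not called with the mean of its probes in place of the brightest (adjusted p = 0.138). Tdgf1, the Nodal co-receptor Cripto, was detected on no GSC array and read 8.94 and 9.47 in ESC, yet it was not called (adjusted p = 0.147, against 0.0109 in the blocked fit). It ran from 4.28 to 10.57 among the 9 other pluripotent lines, of which the iPSC and gPSC lines feed the pooled spread.

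**Figure D2:**
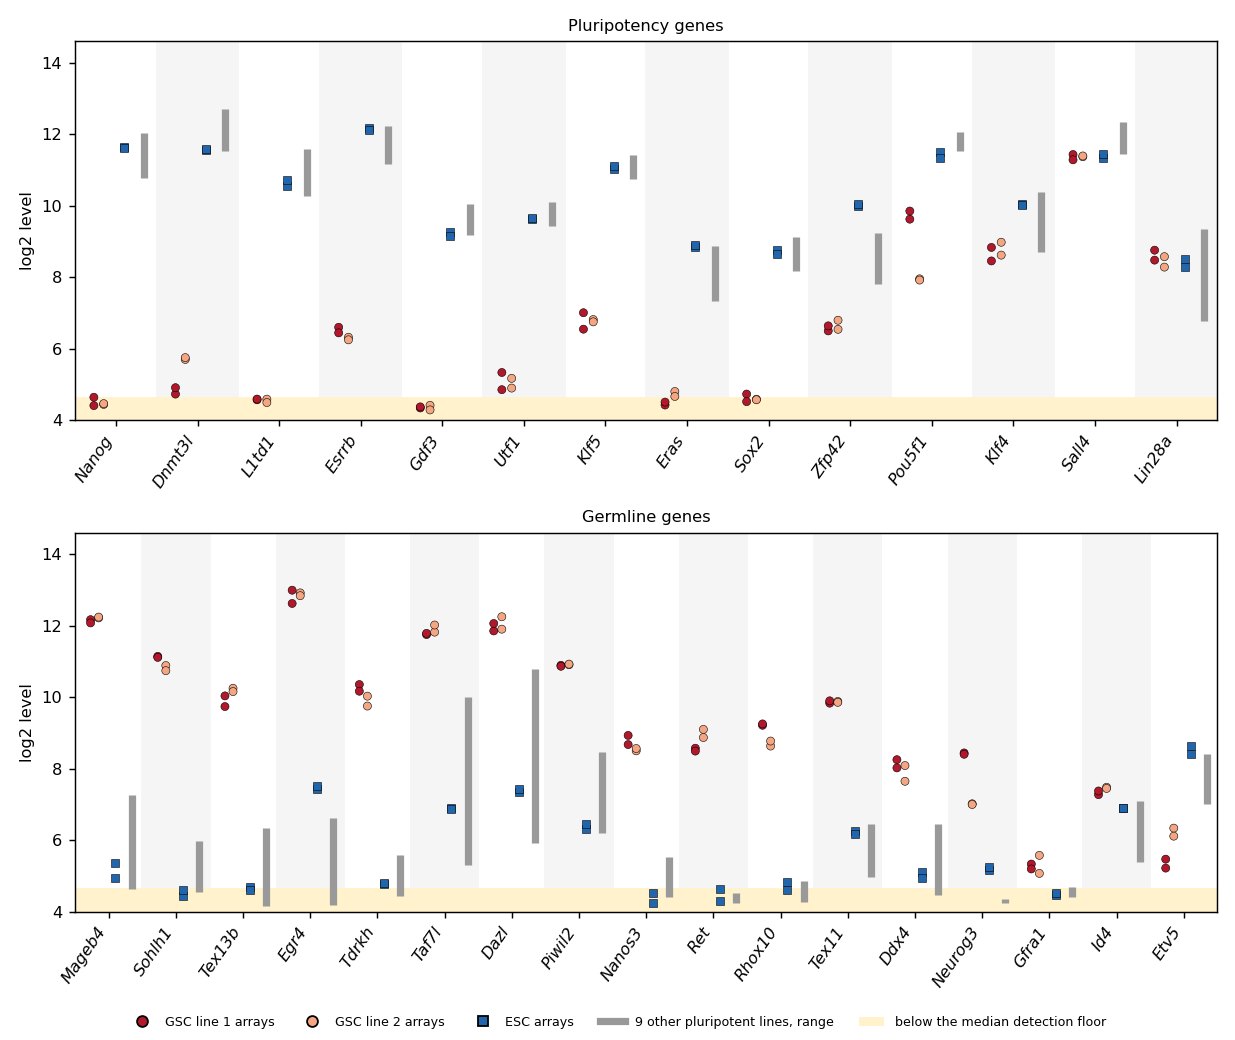
Log2 levels of pluripotency genes (top) and germline genes (bottom) on each array. Circles are the GSC arrays (dark, line 1; light, line 2), squares the ESC arrays, grey bars the range over the 9 other pluripotent lines, and the shaded band lies below the median detection floor. Nanog, Gdf3 and L1td1 sit at the floor in GSC, Sall4 and Lin28a overlap, and Sohlh1, Ret and Nanos3 sit near the floor in ESC.

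The regulators of the spermatogonial state ran the other way. All 20 tested of 24 listed were detected on at least 1 GSC array, 13 were called higher and 1 lower, with a median of 1.70. Sohlh1, a helix-loop-helix factor of differentiating spermatogonia, read 11.15, 11.12, 10.89 and 10.75 on the GSC arrays and 4.43 and 4.62 on the ESC arrays (6.45 ± 0.47, 87.2-fold, adjusted p = 2.99e-05). It is the gene with the E-box triplet shown above. Egr4, an early growth response factor required for male fertility in mice, read 12.998, 12.63, 12.92 and 12.84 in GSC and 7.43 and 7.51 in ESC (5.37 ± 0.91, adjusted p = 0.00241). With the authors' deposited values its adjusted p was 0.0638. Its ESC level lay above the 4.20 to 6.62 of the 9 other pluripotent lines. Nanos3, an RNA-binding protein that protects early germ cells, read 8.68, 8.94, 8.50 and 8.57 in GSC and was detected on neither ESC array, at least 16.6-fold higher. Nanos2, its relative in spermatogonial stem cells, behaved alike, at 8.19, 8.32, 7.998 and 7.98 in GSC and at least 11.3-fold higher. Rhox10, an X-linked homeobox gene of the male germ line, averaged 8.97 in GSC and 4.71 in ESC (4.26 ± 0.32). The other called genes detected in both groups were Neurog3, Foxo1, Egr2 and Mycl, with differences from 2.50 to 1.51. Foxc2, Dmrt1, Bcl6b and Sox3 were detected on neither ESC array, and their bounds were at least 6.48-fold, 4.95-fold, 2.12-fold and 1.64-fold higher. Without GSC line 1 the calls of Egr2 (adjusted p = 0.0536) and Mycl (adjusted p = 0.0761) ended and Sox3 dropped below the 2-fold minimum of the fit, and without GSC line 2 Egr2 ended as well (adjusted p = 0.1).

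Some regulators set for spermatogonia did not follow. Etv5, an ETS factor downstream of GDNF and FGF, read 5.22, 5.47, 6.34 and 6.12 on the GSC arrays and 8.40 and 8.65 on the ESC arrays and was lower in GSC, with a difference of -2.74 ± 0.58 (adjusted p = 0.00713). Id4, an inhibitor of helix-loop-helix factors that marks spermatogonial stem cells, read 7.28, 7.38, 7.49 and 7.45 in GSC and 6.91 and 6.91 in ESC and was not called (0.49 ± 0.56, adjusted p = 0.576). Pou3f1, Lhx1, Sohlh2, Eomes and Egr3 were not called either.

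The receptor for GDNF marked the GSC lines. Ret read 8.58, 8.50, 9.10 and 8.88 on the GSC arrays and 4.65 and 4.30 on the ESC arrays (4.29 ± 0.18, 19.5-fold, adjusted p = 1.69e-06), and 1 of 2 ESC arrays detected it. Its partner Gfra1 read 5.34, 5.20, 5.58 and 5.08 in GSC and was detected on neither ESC array. Only a bound can be given, at least 1.6-fold higher, and it was not called (adjusted p = 0.00306, with a fitted difference under 2-fold). With the authors' deposited values it was called, at a difference of 1.78 (adjusted p = 0.0027). The surface genes Tspan33, a tetraspanin, and Mcam, an adhesion molecule, were higher by 1.87 ± 0.36 and 1.84 ± 0.30. Tspan8, another tetraspanin, was detected on neither ESC array and was at least 2.66-fold higher. Upp1, uridine phosphorylase, was lower, at 8.88, 8.86, 8.44 and 8.45 in GSC and 12.86 and 12.84 in ESC (-4.19 ± 0.78, adjusted p = 0.00386). In all 14 of 19 listed genes of this group were tested, with 4 higher, 1 lower (2 lower in the blocked fit) and a median of 0.20.

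Germ cell RNA regulators and the piRNA pathway were high in GSC. Of 27 listed genes 20 were tested, 12 were higher and 1 lower, with a median of 2.30. Tdrkh, a Tudor-domain partner of PIWI proteins, read 10.36, 10.17, 10.03 and 9.76 on the GSC arrays and 4.77 and 4.80 on the ESC arrays (5.29 ± 0.48, 39.2-fold, adjusted p = 8.67e-05). Piwil2, a PIWI protein of spermatogonia, read 10.90, 10.87, 10.91 and 10.93 in GSC and 6.33 and 6.45 in ESC (4.51 ± 0.78, adjusted p = 0.00261). Piwil4, the nuclear PIWI protein, averaged 7.67 in GSC and was detected on neither ESC array (at least 8.32-fold higher). The PIWI genes were not equally placed, since Piwil1, known from later spermatogenesis, differed by 0.95 ± 0.24 and was not called. Asz1 and Mov10l1, an ankyrin-repeat protein and a helicase of piRNA production, were higher by 3.26 ± 0.97 and 3.21 ± 0.85. Ddx4, the germ cell helicase known as Vasa, read 8.03, 8.26, 7.65 and 8.09 in GSC and 5.11 and 4.95 in ESC (2.98 ± 0.63, adjusted p = 0.00716). Ddx25, Tdrd7, Stk31, Tdrd1 and Tex19.1 were the other called genes detected in both groups, with differences from 3.16 to 1.39. Henmt1 was detected on neither ESC array, at least 3.76-fold higher. The calls of Asz1, Mov10l1 and Stk31 ended when 1 GSC line was left out (adjusted p = 0.107, 0.0633 and 0.0812 without line 1, and 0.0892, 0.073 and 0.0604 without line 2), and that of Tex19.1 without line 1 (adjusted p = 0.0538).

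Dazl and Gtsf1l stood apart in this group. Dazl, an RNA-binding protein needed for germ cell development, was among the brightest germline genes, at 11.86, 12.07, 11.91 and 12.26 on the GSC arrays and 7.36 and 7.44 on the ESC arrays, and the arrays did not overlap. It was not called (4.62 ± 1.997, adjusted p = 0.116), but it was in the blocked fit (adjusted p = 0.00551) and in 5 further alternatives. It ran from 5.93 to 10.80 among the 9 other pluripotent lines, and without iPSC line 3 in the fit it was called (adjusted p = 0.0351). Gtsf1l, a relative of a piRNA factor, ran opposite to its list: it was detected on no GSC array, read 9.70 and 9.36 in ESC and was at least 30.3-fold lower in GSC.

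Of 19 tested testis-specific and cancer-testis genes (23 listed) 12 were higher and 0 lower, with a median of 3.33. The lists were written with earlier results of these data known, so their medians do not rank them. Slc25a31 and Pgk2 were on the array but were not detected on both arrays of any line and were left out. Mageb4, an X-linked member of the MAGE family, read 12.17, 12.08, 12.22 and 12.25 on the GSC arrays and 4.95 and 5.36 on the ESC arrays (7.03 ± 1.004, 131-fold, adjusted p = 0.001), the largest difference upward of any gene detected in both groups. Tex13b read 10.04, 9.74, 10.25 and 10.16 in GSC and 4.70 and 4.62 in ESC (5.39 ± 0.75, adjusted p = 0.00088). Tktl1, a transketolase-like protein, averaged 9.98 in GSC and 4.92 in ESC (5.06 ± 0.55). Taf7l, a germ cell version of a TFIID subunit, read 11.76, 11.79, 11.82 and 12.02 in GSC and 6.90 and 6.89 in ESC (4.96 ± 1.59, adjusted p = 0.0422). Its call was near the threshold and ended without GSC line 1 (adjusted p = 0.116), without GSC line 2 (0.123), and without any 1 of iPSC line 4, gPSC line 2 and gPSC line 4 (adjusted p = 0.0523, 0.0591 and 0.0604). Nxf2, an RNA export factor, and Tex101, a germ cell surface protein, were detected on neither ESC array and were at least 21.6-fold and at least 22.6-fold higher. Gm773, Ott, Tex16, Tuba3a, Tuba3b and Usp26 were the other called genes. Tuba3a and Tuba3b are near-identical tubulin genes whose probes may share signal, and the call of Tuba3a ended without line 1 (adjusted p = 0.0764) and without line 2 (adjusted p = 0.0892).

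Of 28 listed meiosis genes 17 were tested, 4 were higher and 1 lower (2 lower in the blocked fit), with a median of 0.40. The 17 are those detected on both arrays of some line, and Sycp2, Sycp3, Tex12, Dmc1, Hormad1 and Tex15 were on the array but did not pass that filter. Tex11, an X-linked meiotic crossover protein, read 9.84, 9.90, 9.89 and 9.86 on the GSC arrays and 6.26 and 6.17 on the ESC arrays (3.65 ± 0.58, adjusted p = 0.00172). Spo11, which makes the meiotic DNA breaks, read 6.86, 6.71, 6.21 and 6.14 in GSC and 4.21 and 4.29 in ESC (2.23 ± 0.23, adjusted p = 0.000184). Tex14, of the bridges between germ cells, and Sycp1, of the synaptonemal complex, were higher by 1.86 ± 0.56 and 1.82 ± 0.57, and Mlh3, a mismatch repair protein of crossovers, was lower, with a difference of -1.004 ± 0.25. Without GSC line 1 none of these last 3 was called (adjusted p = 0.102, 0.121 and 0.0755), and without line 2 Tex14 and Sycp1 were not (adjusted p = 0.0989 and 0.101). Sycp1 also lost its call without iPSC line 4, gPSC line 2 or gPSC line 4 (adjusted p from 0.0526 to 0.0537). Stra8, the switch into meiosis, read 7.61, 8.20, 6.99 and 7.26 in GSC and 6.04 and 6.44 in ESC and was not called (1.27 ± 0.71, adjusted p = 0.217).

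**Figure D3:**
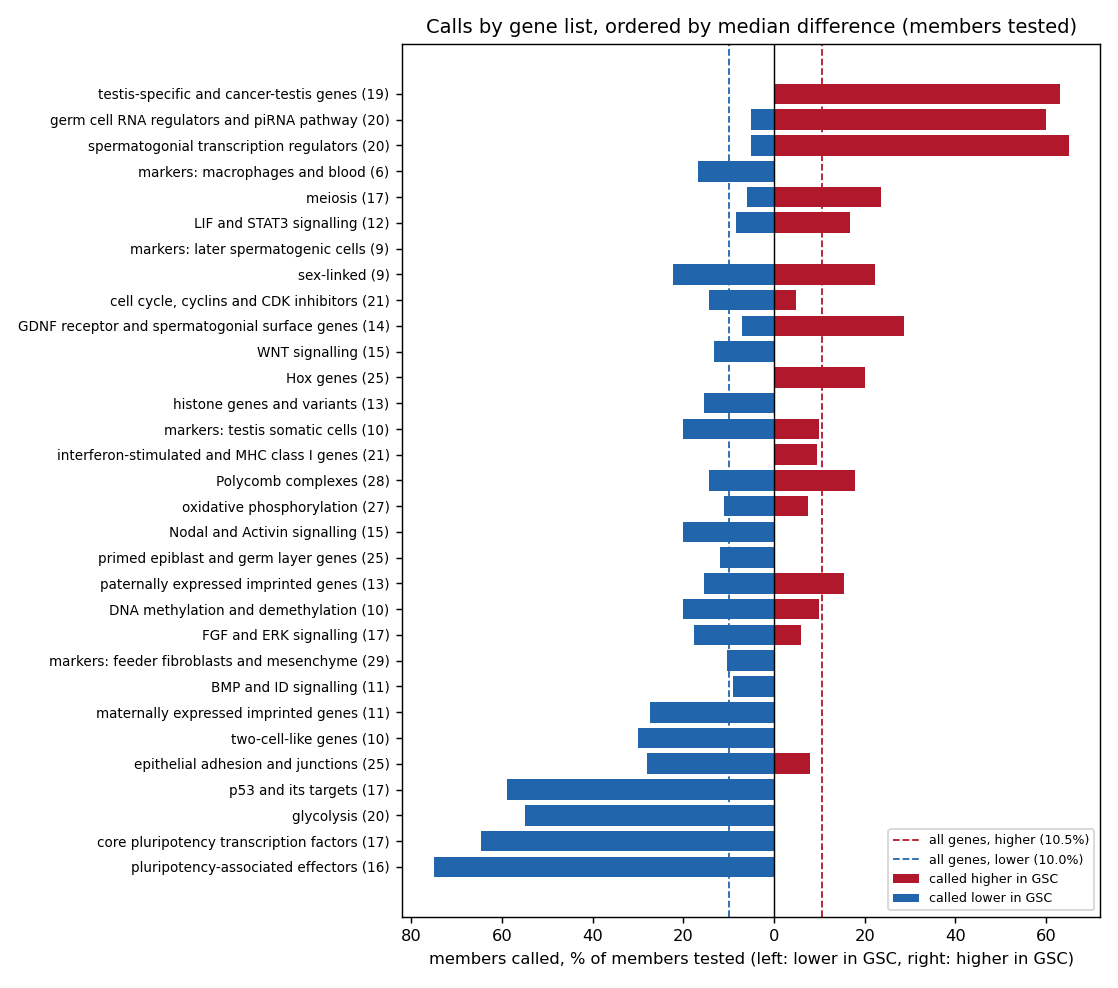
Share of the tested members of each of 31 gene lists that were called higher (red, right) or lower (blue, left) in GSC, in percent, with the number of members tested in brackets and lists ordered by median difference. Dashed lines mark the shares over all genes, 10.5% higher and 10.0% lower. The spermatogonial, germ cell RNA and testis lists reach furthest to the right, and the pluripotency, glycolysis and p53 lists furthest to the left.

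The shares called in the LIF, BMP, WNT, oxidative phosphorylation, cell cycle, histone and interferon lists lay near those of all genes. So did the share called lower in the primed epiblast list and the shares called in the paternally expressed imprinted list. The calls in these lists are given below as single genes and not as a result about the list.

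Polycomb subunits were called in both directions. Polycomb proteins keep genes silent through 2 kinds of complex, PRC1, built on a RING1 enzyme with PCGF, CBX and PHC partners, and PRC2, built on EZH2 or EZH1. Of 28 tested subunits (35 listed) 5 were higher, 4 lower and 19 not called, against 10.5% higher and 10.0% lower over all genes. The median was -0.13. Among the CBX readers, Cbx8 read 8.09, 8.01, 8.32 and 8.18 on the GSC arrays and was detected on neither ESC array (at least 11.6-fold higher). Cbx2 read 8.14, 7.75, 7.995 and 7.89 in GSC and 5.33 and 5.24 in ESC (2.66 ± 0.20, adjusted p = 3.22e-05). Cbx7 went down, at 6.89, 6.69, 7.03 and 7.03 in GSC and 8.38 and 8.36 in ESC (-1.46 ± 0.18, adjusted p = 0.000433). Some other related subunits were also called in opposite directions, and they are paired here among the called genes only. Phc2 was higher by 2.005 ± 0.34 (adjusted p = 0.00252) and Phc1 lower, with a difference of -1.74 ± 0.42 (adjusted p = 0.0133). Bmi1, which is PCGF4, was higher by 1.88 ± 0.36 (adjusted p = 0.00442) and Pcgf6 lower, with a difference of -1.13 ± 0.30 (adjusted p = 0.021). Ezh2 averaged 8.17 in GSC and 10.05 in ESC (-1.88 ± 0.29, adjusted p = 0.0015).

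E2f6, a DNA-binding member of the PRC1 variant that contains PCGF6, was higher in GSC, at 10.35, 10.08, 10.21 and 10.13 on the GSC arrays and 8.39 and 8.54 on the ESC arrays (1.73 ± 0.20, adjusted p = 0.000379), while Pcgf6 itself was lower. In mouse ESCs this variant is known to hold germline genes silent at E-box and E2F motifs. Pcgf5 read 11.81, 11.78, 11.79 and 11.78 in GSC and 9.71 and 9.67 in ESC but was not called (2.10 ± 0.93, adjusted p = 0.122, against 0.00737 in the blocked fit). The call of Phc1 ended without GSC line 2 (adjusted p = 0.0553), and that of Pcgf6 without line 1 (adjusted p = 0.073) and without line 2 (adjusted p = 0.0705).

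Among Hox genes, the classical Polycomb targets, the calls all came from 1 cluster. Of 25 tested (38 listed) 5 were higher and 0 lower, all of them Hoxb genes, and the list median was -0.02. The number called higher ran from 2 to 5 over the alternatives. Without background correction Hoxb4 (0.843), Hoxb5 (0.815) and Hoxb6 fell short of 2-fold, and Hoxb6 did so with an offset of 50 as well. Hoxb7 read 8.74, 8.74, 8.79 and 8.90 on the GSC arrays and 4.54 and 4.70 on the ESC arrays (4.17 ± 0.48, adjusted p = 0.00035). Hoxb2 averaged 7.35 in GSC and 4.60 in ESC, Hoxb5 6.71 in GSC and 4.82 in ESC, and Hoxb4 6.81 in GSC and 4.92 in ESC, with differences of 2.75 ± 0.26, 1.89 ± 0.29 and 1.89 ± 0.33. Hoxb6 was detected on neither ESC array, at least 1.88-fold higher. The fibroblast line expressed these genes too, at 7.63, 7.51, 6.73, 7.23 and 5.74, together with Hoxa, Hoxc and Hoxd genes that were not called in GSC. The part of other cells in the Hoxb levels was not tested.

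Of 10 tested genes of DNA methylation (21 listed), 1 was higher and 2 lower, against 10.5% and 10.0% of all genes. The calls are given as single genes and not as a result about the list. Dnmt3l, described above, had the largest difference. Dnmt3b, a de novo methyltransferase, read 10.30, 10.15, 9.82 and 9.90 on the GSC arrays and 11.76 and 11.65 on the ESC arrays and was not called (-1.66 ± 1.04, adjusted p = 0.272). Tdg, a DNA glycosylase of demethylation, was lower, with a difference of -1.04 ± 0.31 and Mbd1, a methyl-CpG reader, higher by 1.16 ± 0.37, and both calls ended when GSC line 1 or GSC line 2 was left out (adjusted p from 0.0916 to 0.132). Mbd1 was not called either without any 1 of iPSC lines 1, 2 and 4 and gPSC lines 3 and 4 (adjusted p from 0.0509 to 0.0625).

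**Figure D4:**
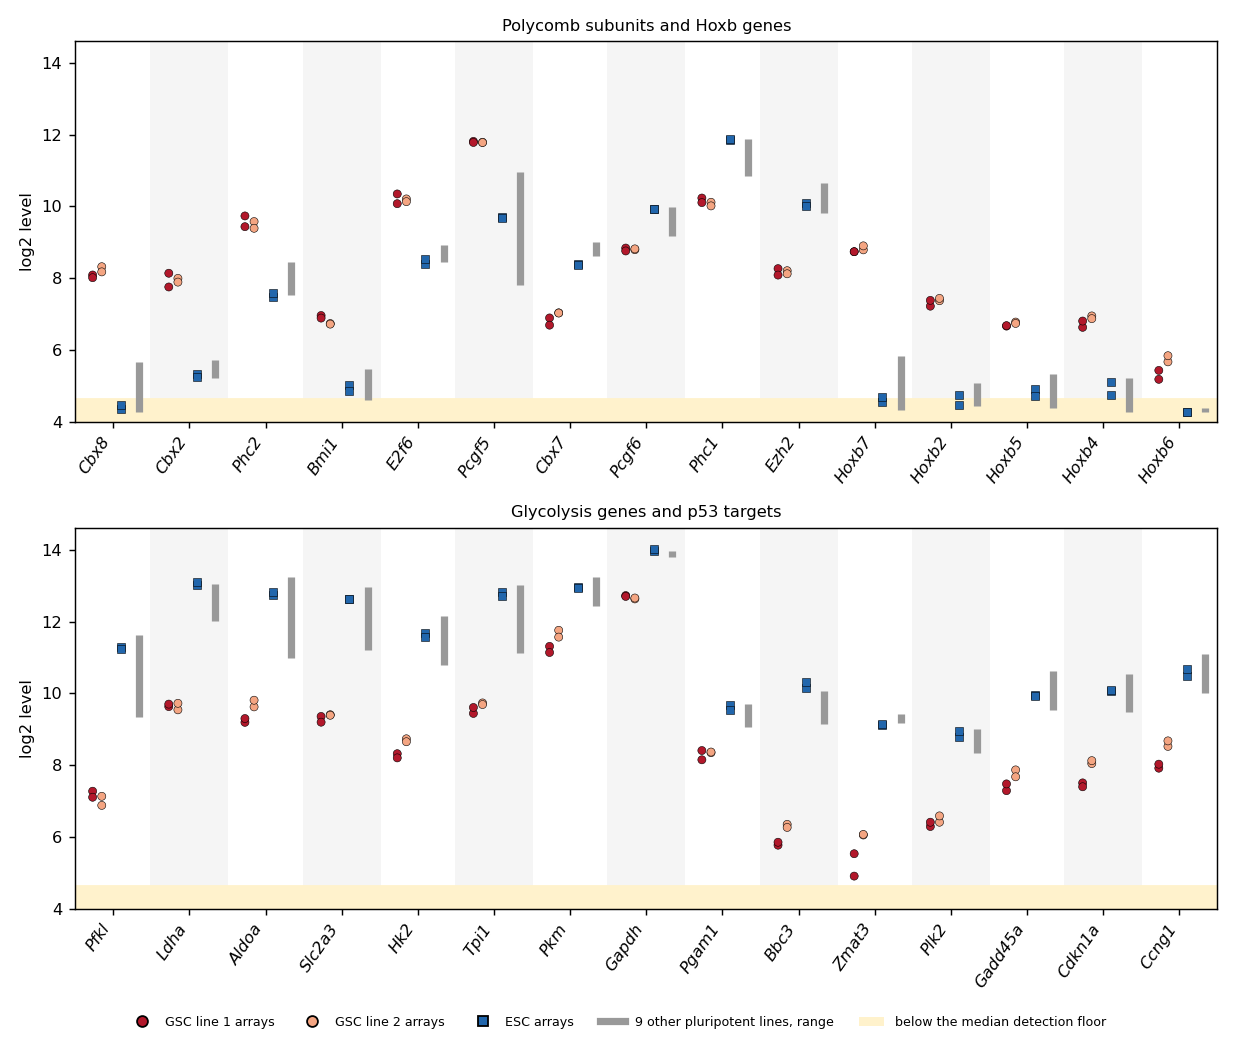
Log2 levels of Polycomb subunits and Hoxb genes (top) and of glycolysis genes and p53 targets (bottom) on each array, with symbols as in the plot of pluripotency and germline genes. GSC arrays lie above ESC arrays for Cbx8, Cbx2, Phc2 and Bmi1 and below them for Cbx7, Pcgf6, Phc1 and Ezh2, and all 15 genes of the lower panel are lower in GSC.

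Glycolysis genes were lower in GSC. All 20 tested genes (24 listed) had negative differences, 11 were called lower and 0 higher, and the median was -1.51. The calls ran along the pathway from glucose entry to lactate. Slc2a3, a glucose transporter, read 9.36, 9.20, 9.40 and 9.39 on the GSC arrays and 12.63 and 12.62 on the ESC arrays (-3.29 ± 0.58, adjusted p = 0.00286). Hk2, the first kinase of the pathway, averaged 8.48 in GSC and 11.62 in ESC. Pfkl, a phosphofructokinase subunit at the committed step, had the largest difference, at 7.27, 7.10, 7.13 and 6.88 in GSC and 11.28 and 11.24 in ESC (-4.16 ± 0.75, 17.9-fold, adjusted p = 0.00322). Aldoa (aldolase), Tpi1 (triosephosphate isomerase), Gapdh, Pgam1 (phosphoglycerate mutase) and Pkm (pyruvate kinase) followed, with differences of -3.29, -3.14, -1.31, -1.30 and -1.51. Ldha, lactate dehydrogenase, read 9.63, 9.70, 9.54 and 9.72 in GSC and 13.01 and 13.10 in ESC (-3.41 ± 0.34, adjusted p = 0.000149). Pdk1, which holds pyruvate back from the mitochondrion, was lower, with a difference of -1.51 ± 0.32. Pfkp was called at adjusted p = 0.0459 and lost the call without GSC line 1 (adjusted p = 0.13), without line 2 (adjusted p = 0.123), and without any 1 of iPSC lines 1 to 4 and gPSC lines 2 and 4 (adjusted p from 0.0522 to 0.0664). The muscle subunit Pfkm, which was not called, averaged 9.45 in GSC and 9.60 in ESC, and its difference was 0.06 with the mean of its probes in place of the brightest.

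Oxidative phosphorylation genes were called in both directions: 2 of 27 tested genes (31 listed) were higher and 3 lower, with a median of -0.14. Cox4i1 and Uqcrh, subunits of complexes IV and III, were higher by 1.05 ± 0.16 and 1.06 ± 0.18. Atp5c1, Ndufb5 and Sdhd, subunits of ATP synthase, complex I and complex II, were lower, with differences of -1.10 ± 0.23, -1.09 ± 0.25 and -1.01 ± 0.19. All 5 lay close to the 2-fold minimum, and without GSC line 2 Cox4i1 (0.97) and Sdhd (-0.90) fell short of it. Sdhd was also not called in the blocked fit (adjusted p = 0.0777).

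Targets of p53, the stress-responsive tumour suppressor, were low in GSC. Of 17 tested genes (21 listed) 10 were lower and 0 higher, with a median of -1.39. Bbc3, the pro-apoptotic PUMA, read 5.77, 5.85, 6.35 and 6.26 on the GSC arrays and 10.14 and 10.32 on the ESC arrays (-4.18 ± 0.33, adjusted p = 4.23e-05). Zmat3, a zinc finger RNA-binding protein, read 5.53, 4.91, 6.05 and 6.07 in GSC and 9.13 and 9.15 in ESC (-3.50 ± 0.27, adjusted p = 4.04e-05). Plk2, a stress-responsive kinase, and Gadd45a, a growth arrest gene, were lower, with differences of -2.44 ± 0.28 and -2.36 ± 0.32. Cdkn1a, the cell cycle inhibitor p21, averaged 7.77 in GSC and 10.09 in ESC. Ccng1, Phlda3, Gtse1, Sesn2 and Trp53inp1 completed the list, and the call of Sesn2 ended without GSC line 1 (adjusted p = 0.0621) and that of Trp53inp1 without line 1 (adjusted p = 0.139) and without line 2 (adjusted p = 0.0732), as well as without iPSC line 4 (0.0546) or gPSC line 4 (0.0539).

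In the cell cycle list, 1 of 21 tested genes (24 listed) was higher (2 in the blocked fit) and 3 were lower (Ccne1, Cdk1 and Cdkn1a), with a median of 0.24. Ccne1, the G1 cyclin E, read 5.41, 5.19, 5.50 and 5.61 on the GSC arrays and 8.77 and 8.93 on the ESC arrays (-3.42 ± 0.85, adjusted p = 0.015), and Cdk1, the mitotic kinase, averaged 7.75 in GSC and 9.77 in ESC (-2.02 ± 0.27, adjusted p = 0.000736). With the mean of its probes in place of the brightest, Cdk1 differed by -0.986 and was not called. Cdkn2a, which encodes the inhibitors p16 and p19ARF, was higher, at 8.82, 8.999, 9.11 and 9.02 in GSC and 6.61 and 6.59 in ESC (2.38 ± 0.70, adjusted p = 0.0306). The call of Ccne1 ended without GSC line 1 (adjusted p = 0.063), and that of Cdkn2a without line 1 (adjusted p = 0.0867) and without line 2 (adjusted p = 0.102). Of 13 tested histone genes (21 listed) 0 were higher (1 in the blocked fit), and H2ax and H1f5 were lower, with differences of -1.05 ± 0.22 and -1.04 ± 0.35. Without line 2 H2ax fell short of 2-fold (-0.92), and the call of H1f5 ended without line 1 (adjusted p = 0.141) and without line 2 (adjusted p = 0.126), or without any 1 of iPSC lines 1 to 4 and gPSC lines 3 and 4 (adjusted p from 0.052 to 0.0699).

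Among signalling genes, Nodal and its inhibitors of the Lefty family were near the floor in GSC and well expressed in ESC. Of 15 tested Nodal and Activin genes (17 listed) 3 were lower (6 in the blocked fit) and 0 higher. Nodal, the ligand, read 4.40, 4.48, 4.46 and 4.70 on the GSC arrays and 7.84 and 7.63 on the ESC arrays (-3.23 ± 0.45, adjusted p = 0.000862). Lefty2, its secreted inhibitor, read 4.41, 4.51, 4.39 and 4.62 in GSC and 9.79 and 9.70 in ESC (-5.26 ± 1.26, adjusted p = 0.013), and Foxh1, a nuclear partner of the pathway, was detected on no GSC array (at least 1.97-fold lower). Without GSC line 1 neither Lefty2 (adjusted p = 0.052) nor Foxh1 (adjusted p = 0.0558) was called. Lefty1 was as far apart, at 4.45, 4.38, 4.67 and 4.21 in GSC and 10.77 and 10.70 in ESC, but missed the threshold (adjusted p = 0.0659). It was called in 8 alternatives, among them the blocked fit (adjusted p = 0.00115), the authors' deposited values (adjusted p = 0.0341), and the fits without iPSC line 3 and without gPSC line 3 (adjusted p = 0.019 and 0.0314).

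In FGF signalling, 1 of 17 tested genes (21 listed) was higher (2 in the blocked fit) and 3 were lower. Fgf4, the FGF of ESCs, was detected on no GSC array (at least 6.66-fold lower), and Etv5 and Dusp4, a target and a feedback phosphatase, were lower, with differences of -2.74 ± 0.58 and -2.48 ± 0.37. Egr1, an immediate early gene, was higher and read 13.70, 13.50, 13.74 and 13.85 in GSC and 12.58 and 12.61 in ESC (1.10 ± 0.30, adjusted p = 0.0221). Without line 1 and without line 2 its adjusted p was 0.0549 and 0.0924.

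In LIF signalling, which sustains mouse ESCs, 3 genes were called. Stat3, its transcription factor, read 10.76, 10.55, 11.001 and 10.82 on the GSC arrays and 9.33 and 9.33 on the ESC arrays (1.45 ± 0.41, adjusted p = 0.0267), and Jak1, a kinase upstream of it, averaged 7.89 in GSC and 6.49 in ESC (1.41 ± 0.35, adjusted p = 0.0155). The kinase Pim3 was lower, with a difference of -1.19 ± 0.31. With these, 2 of 12 tested genes (12 listed) were higher and 1 lower. Each of the 3 calls ended when 1 GSC line was left out: without line 1 Stat3 and Pim3 were not called (adjusted p = 0.0631 and 0.0936), and without line 2 Stat3 and Jak1 were not (adjusted p = 0.106 and 0.0786). Of 11 tested BMP genes (15 listed) only Id2, a BMP-responsive inhibitor of helix-loop-helix factors, was called (2 genes were lower in the blocked fit), lower at 4.57, 4.40, 4.36 and 4.58 in GSC and 7.13 and 7.44 in ESC (-2.81 ± 0.47, adjusted p = 0.00234). Of 15 tested WNT genes (22 listed) Fzd7, a receptor, and Tcf7l1, a repressor of WNT targets, were lower, with differences of -1.88 ± 0.29 and -1.38 ± 0.36, the second called only with line 2 in the fit (adjusted p = 0.0941 without it).

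Several epithelial junction genes were lower in GSC. Of 25 tested genes (30 listed) 7 were lower, 2 higher and 16 not called, with a median of -1.28. The number called lower was 11 in the blocked fit and ran from 3 to 13 over the alternatives. Cldn4, a tight junction claudin, read 4.89, 4.53, 4.62 and 4.86 on the GSC arrays and 10.66 and 10.68 on the ESC arrays (-5.94 ± 0.55, adjusted p = 0.000101). Cdh1, E-cadherin, read 5.38, 5.43, 5.09 and 5.41 in GSC and 10.12 and 10.56 in ESC (-5.01 ± 0.25, adjusted p = 3.93e-06). Cldn6, a second claudin, and Grhl2, an epithelial transcription factor, were lower, with differences of -4.71 ± 0.64 and -2.49 ± 0.59. Pkp2, Cldn7 and Dsg2 were lower too. Ocln, a tight junction protein, and Zeb1, a repressor of epithelial genes, were higher by 1.11 ± 0.20 and 1.02 ± 0.25. Without GSC line 1 the calls of Grhl2 and Zeb1 ended (adjusted p = 0.0545 and 0.0558), and those of Pkp2, Cldn7 and Dsg2 ended when line 1 or line 2 was left out (adjusted p from 0.0621 to 0.0898). Vim, the mesenchymal filament vimentin, averaged 8.07 in GSC and 9.69 in ESC and was not called.

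Each called gene of the later embryonic and two-cell-like lists was lower in GSC. Over all genes 10.0% were called lower, against 3 of 25 tested primed epiblast and germ layer genes and 3 of 10 tested two-cell-like genes. Differences in the primed epiblast and germ layer list went both ways, 12 positive and 13 negative. Of 25 tested primed epiblast and germ layer genes (28 listed) 3 were lower (6 in the blocked fit): Otx2, a homeobox factor of the epiblast, undetected on every GSC array and at 9.95 and 10.03 in ESC (at least 41.8-fold lower), Zic2, a zinc finger factor (at least 5.15-fold lower), and Gsc, the homeobox gene goosecoid (at least 2.31-fold lower). The call of Gsc ended without line 1 (adjusted p = 0.0689) and without line 2 (adjusted p = 0.0661). Of 10 tested two-cell-like genes (19 listed) 3 were lower. Zscan4c, a telomere regulator of rare ESCs, and Tcstv3 were detected on no GSC array, at least 8.87-fold and at least 4.55-fold lower, and both lost their call when GSC line 1 or GSC line 2 was left out (adjusted p from 0.104 to 0.116). Eif1a, an initiation factor, was lower, with a difference of -1.42 ± 0.28, and it read 10.39 in the fibroblast line and 10.41 in ESC. Zscan4c and Tcstv3 belong to families of near-identical copies, so their probes may read several. The call of Zscan4c also ended without gPSC line 4 (adjusted p = 0.0516), and that of Tcstv3 without iPSC line 1, iPSC line 2 or gPSC line 4 (adjusted p from 0.0511 to 0.0569).

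Imprinted genes, which are expressed from 1 parental copy and whose marks are rewritten in the germ line, went in both directions. Of 13 tested paternally expressed genes (25 listed) 2 were higher and 2 lower. Impact, a translational regulator, read 7.51, 7.40, 7.89 and 7.90 on the GSC arrays and 10.76 and 10.69 on the ESC arrays (-3.05 ± 0.24, adjusted p = 4.15e-05), and Snrpn, a spliceosome protein, 8.63, 8.58, 8.95 and 8.63 in GSC and 11.47 and 11.18 in ESC (-2.63 ± 0.29, adjusted p = 0.000287). Inpp5f, a phosphatase, was higher by 2.17 ± 0.34, and Ndn, a MAGE-family protein, by 1.41 ± 0.44, the second without a call when line 1 or line 2 was left out (adjusted p = 0.123 and 0.0986). With the mean of its probes in place of the brightest, Inpp5f fell short of 2-fold (0.993). Of 11 tested maternally expressed genes (22 listed) 3 were lower (5 in the blocked fit), Grb10, a growth-restraining adaptor (-2.30 ± 0.66), Cd81, a tetraspanin (-1.19 ± 0.38), and Slc22a18, a transporter (-1.05 ± 0.35), and each lost its call when GSC line 1 or line 2 was left out (adjusted p from 0.0505 to 0.14). Grb10 averaged 6.71 in GSC, within the 6.10 to 8.78 of the 9 other pluripotent lines, while ESC lay above them at 9.01. With those 9 lines in place of ESC, Grb10 differed by -0.517 and was not called, and Slc22a18 was not called either. Single iPSC and gPSC lines mattered as well: Ndn was not called without iPSC line 4, gPSC line 2 or gPSC line 4 (adjusted p from 0.0503 to 0.0544), Cd81 without iPSC line 1 or 4 or gPSC line 2 or 4 (0.0503 to 0.0613), and Slc22a18 without these or gPSC line 3 (0.0566 to 0.0669). Igf2, the growth factor, read 11.02, 10.94, 11.57 and 11.50 in GSC and 11.998 and 12.13 in ESC and was not called.

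The Y-linked genes were unequal. Usp9y read 8.25, 8.31, 8.65 and 8.48 on the GSC arrays and was detected on neither ESC array (at least 14-fold higher), and Kdm5d, a histone demethylase, was at least 2.93-fold higher. Eif2s3y, by contrast, read 8.82, 9.14, 8.99 and 9.04 in GSC and 8.19 and 8.50 in ESC and was not called. The X-linked genes Eif2s3x and Kdm6a, which escape X inactivation in the mouse, were lower, with differences of -2.27 ± 0.30 and -1.96 ± 0.20 (adjusted p = 0.000656 and 0.000192). Xist, the RNA of the inactive X, lay near the floor in both, at 4.79, 4.54, 4.88 and 4.61 in GSC and 4.96 and 4.59 in ESC. In all, 2 of 9 tested genes (13 listed) were higher and 2 lower. Of 21 tested interferon and MHC class I genes (24 listed), Tapbp, which loads peptides on MHC molecules, and Irf1, an interferon-responsive factor, were higher by 2.17 ± 0.27 and 1.80 ± 0.42, 0 were lower (1 in the blocked fit), and the call of Irf1 ended without line 1 (adjusted p = 0.058).

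The cultures could hold other cells, and feeder and mesenchymal markers were lower in sum in GSC than in ESC. In total RNA of a culture, fewer cells of a type and less RNA per cell cannot be told apart. Of 29 tested feeder and mesenchymal markers (32 listed) 24 had negative differences. In calls, 3 were lower and 0 higher, against 10.0% and 10.5% of all genes. The number called lower was 6 in the blocked fit and 10 with the GSC and ESC lines alone in the fit, the highest over the alternatives. Their summed linear level was 4394 to 7227 on the GSC arrays and 15890 to 16180 on the ESC arrays, and their mean log2 level was 6.45 to 6.90 in GSC, 7.56 to 7.58 in ESC and 10.33 to 10.34 in the fibroblast line. The 3 called were Ccn1 and Ccn2, matrix-associated targets of YAP, and Acta2, smooth muscle actin, the last at 5.92, 6.06, 6.18 and 6.33 in GSC, 10.50 and 10.53 in ESC and 13.98 in the fibroblast line. Across the 9 other pluripotent lines Ccn2 read 11.44 to 12.47, Ccn1 9.06 to 10.05 and Acta2 7.1 to 9.2. The sums include these 3 genes, and which cells of a culture gave their signal was not tested. The sums therefore do not compare the amount of feeder cells. Col1a2, Tagln, Col5a2 and Postn were detected on no GSC array, and Col5a2 and Postn on no ESC array. The part of feeder cells in the epithelial, p53 and signalling differences was not tested.

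Markers of later spermatogenic cells gave 0 calls among 9 tested genes (24 listed), and 1 lower call in the blocked fit. Their mean level was 5.86 to 6.19 on the GSC arrays and 5.69 to 5.79 on the ESC arrays, their summed level 988.7 to 1397 in GSC and 921.7 to 953.6 in ESC, and Tnp1, a transition protein of spermatids, was detected in neither. Of 10 tested testis somatic markers (23 listed) Wt1, a zinc finger factor of Sertoli cells, was higher, at 9.26, 9.15, 8.79 and 8.77 in GSC and 4.78 and 4.96 in ESC (4.12 ± 0.62, adjusted p = 0.00134). Dhh and Inha, further Sertoli genes, were detected in neither cell type, and Sox9 read 4.55, 4.75, 4.91 and 4.70 in GSC and 4.34 and 4.28 in ESC. Rhox5, an X-linked homeobox gene of Sertoli cells that ESCs also express, read 4.96, 4.98, 4.54 and 4.81 in GSC and 12.03 and 12.07 in ESC (-7.23 ± 0.89, adjusted p = 0.000488), and Amhr2, the receptor for anti-Mullerian hormone, was lower, with a difference of -2.73 ± 0.46. The summed level of this list was 709 to 908.6 in GSC and 4748 to 4832 in ESC, and most of the ESC sum came from Rhox5. Since ESCs express Rhox5 themselves, the sums do not compare the amount of testis somatic cells. Of the 10 differences, 4 were positive and 6 negative, with a median of -0.052. The part of somatic cells in the Wt1 level was not tested. Of 6 tested macrophage and blood markers (14 listed) 0 were higher (1 in the blocked fit) and Laptm5, a lysosomal protein of blood cells, was lower, undetected in GSC and at 10.84 and 10.80 in ESC (at least 74.2-fold). The summed level of the 6 was 186.7 to 218.1 in GSC and 1896 to 1934 in ESC, and most of the ESC sum came from Laptm5. Laptm5 read 10.58 to 11.55 across the 9 other pluripotent lines. By gene, 5 of the 6 differences were positive, with a median of 0.444. Adgre1, a macrophage surface receptor, was detected in neither.

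Outside the lists, among genes detected in both groups and higher in GSC, stood Cd274, the immune checkpoint ligand PD-L1, which read 9.98, 9.90, 10.21 and 10.09 on the GSC arrays and 5.01 and 5.08 on the ESC arrays (4.998 ± 0.44, adjusted p = 8.03e-05). Reln, the secreted glycoprotein reelin, read 9.03, 8.82, 9.07 and 9.16 in GSC and 4.42 and 4.67 in ESC (4.48 ± 0.22, adjusted p = 3.38e-06), and the transcript 9530077C05Rik differed by 4.28 ± 0.18. Among genes detected on neither ESC array, Radx, a single-strand DNA-binding protein of replication forks, was at least 23.1-fold higher, Igfbp6, an IGF-binding protein, at least 20.6-fold, Asb9, an ankyrin-repeat protein, at least 18.4-fold and Bnc1, a zinc finger protein of germ cells, at least 12.3-fold. In all, 157 of the 1120 genes called higher were detected on neither ESC array.

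In the opposite direction, Bcat1, an aminotransferase of branched-chain amino acids, read 4.34, 4.38, 4.69 and 4.50 on the GSC arrays and 10.74 and 10.74 on the ESC arrays (-6.27 ± 0.46, adjusted p = 2.92e-05). Hspb1, a small heat shock protein, read 5.19, 5.25, 5.54 and 5.68 in GSC and 11.28 and 11.64 in ESC (-6.04 ± 0.35, adjusted p = 8.35e-06), and Ooep, a maternal-effect protein of oocytes, 5.84, 6.04, 5.73 and 5.78 in GSC and 11.61 and 11.51 in ESC (-5.71 ± 0.35, adjusted p = 1.21e-05). These 3 kept their calls under every alternative setting tried. Slc7a3, an amino acid transporter, Gstp2, a glutathione transferase, and Fabp3, a fatty acid-binding protein, were lower, with differences of -5.18 ± 1.30, -5.02 ± 1.08 and -4.70 ± 1.24. Slc7a3 and Fabp3 lost their calls without line 1 (adjusted p = 0.0632 and 0.08) and without line 2 (adjusted p = 0.052 and 0.0552). Of the 1067 genes called lower, 112 were detected on no GSC array. The largest bounds among them were those of Wfdc2, a secreted protease inhibitor-like protein (at least 103-fold), Laptm5, Otx2, Gtsf1l, Erdr1 (at least 25.7-fold), Gdf3, Elf3, an epithelial ETS factor (at least 22.2-fold), and the transcript 2210409E12Rik (at least 18.7-fold).

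The GSC lines themselves were close. Their line means differed by at least 2-fold at 30 of 10660 genes, 19 higher in line 1 and 11 in line 2, and by 4-fold at 0. With 1 line each there is no test of this difference. Pou5f1 differed most (1.80). Neurog3, a helix-loop-helix factor of early spermatogonia, read 8.43 in line 1, 7.01 in line 2 and 5.22 in ESC, and Ldhc, the germ cell lactate dehydrogenase, 8.40 in line 1, 7.05 in line 2 and 7.44 in ESC. The remaining genes highest in line 1 were Ly6g6e, Ly6g6c, Lor, Patj and Bcl6, with differences between the lines of 1.44, 1.41, 1.39, 1.35 and 1.24. Between GSC and ESC, Ly6g6e and Lor were called only in some alternatives, the blocked fit among them (adjusted p = 0.022 and 0.0136). Line 2 was higher in Mgp, a matrix protein of mesenchyme (8.91 in line 1, 10.58 in line 2 and 8.38 in ESC), in the chemokines Ccl2 and Cxcl1, in Vim, and in Socs2, Etv4, Ahnak and Prl2c3, with differences between the lines (line 1 minus line 2) from -1.68 to -1.04. Mgp and Vim are among the feeder and mesenchymal or junction lists, and the part of feeder cells in this difference was not tested. Of the 30 genes, 6 were among the 2187 called between GSC and ESC.

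**Figure D5:**
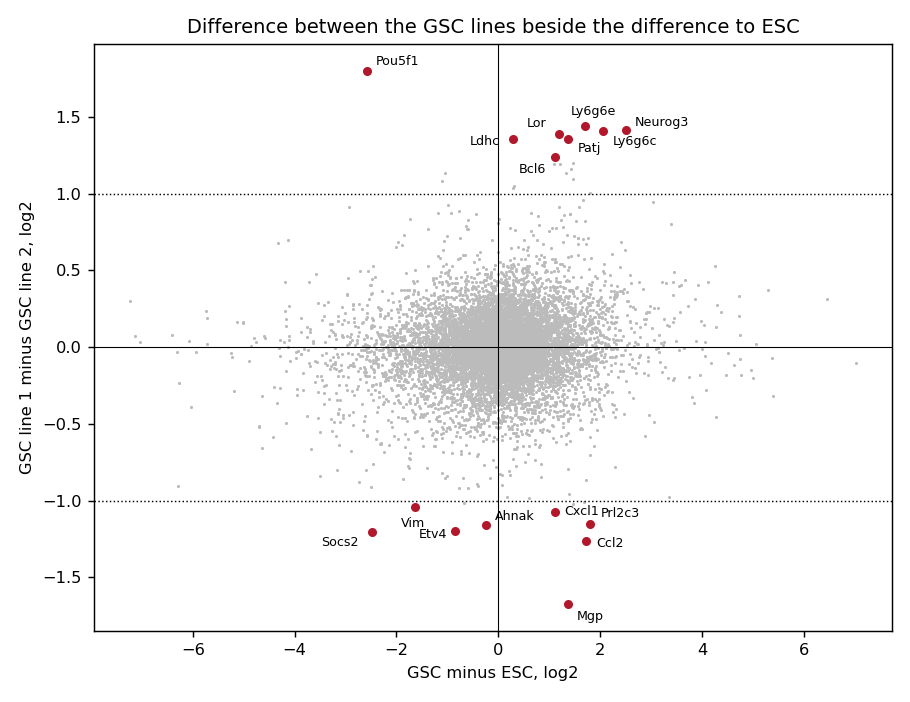
Difference between the GSC lines (line 1 minus line 2, log2, vertical) against the difference between GSC and ESC (log2, horizontal) for 10660 genes. Dotted lines mark a 2-fold difference between the lines, and the 8 genes farthest each way are named. Nearly all genes lie within the dotted lines, and Pou5f1 (1.80) and Mgp (-1.68) lie farthest out.

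Since ESC is 1 line, its levels were set beside the 9 other pluripotent lines, which share no GSC values with it. The ESC line differed from them at 26 of 10660 genes (0.244%), 22 higher and 4 lower in ESC. This comparison shares the ESC arrays with that of GSC and ESC. At 1645 of the 2187 genes called between GSC and ESC the ESC level lay within the range of the 9 lines, and at 2131 all 9 lines lay on the ESC side of the GSC mean. The same shares over all genes were not counted. The iPSC and gPSC lines among the 9 also set the spread behind the calls, so these counts are no separate check of the ESC line. The ESC level lay more than 1 log2 unit outside the range of the 9 lines at 23 called genes. Those farthest out, chosen after their values were seen, were Thumpd1, Trim59, Csrp1 and Twistnb. The first 3 were detected on no GSC array, at least 13.5-fold, 11-fold and 8.03-fold lower there. Thumpd1, an RNA modification cofactor, averaged 4.24 in GSC and 8.36 in ESC, with 4.20 to 4.31 in the 9 other lines and 7.82 in the fibroblast line. Trim59, a ubiquitin ligase, averaged 4.50 in GSC and 8.06 in ESC, with 4.36 to 4.77 in the 9 lines and 7.41 in the fibroblast line. Csrp1 averaged 4.41 in GSC and 7.61 in ESC (4.58 to 5.52 in the 9 lines), and Twistnb, a subunit of RNA polymerase I, 8.14 in GSC and 5.97 in ESC (8.05 to 9.002 in the 9 lines). At these 4 genes the 9 lines lay nearer to GSC than to ESC. Acta2 was the only member of a list among the 23.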

How the data were processed

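Total RNA of 13 mouse cell lines was measured on Illumina BeadChips, with 2 technical arrays per line. The deposited intensities are the authors' non-normalized average probe signals, each with a deposited detection p-value, and the deposited log2 values, which served as an alternative, share 1 set of quantiles across arrays, with the authors' background step not given in the sources used here. BeadStudio 3.2 and lumi were used, per the submitters' processing notes, at steps that these do not give. RNA was extracted and labelled as cRNA with commercial kits, per the labels' protocols.

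Intensities were background-corrected and quantile normalized with neqc of limma 3.58.1 (R 4.3.3, offset 16), using 798 negative controls as implied by the steps of the detection p-values. A probe counted as detected at a detection p-value under 0.05, had to be detected on both arrays of some line, and the brightest such probe stood for its gene. Arrays of a line were averaged. limma was fitted on 13 lines with 1 mean per group (7 residual degrees of freedom, 9.29 after moderation), p-values were Benjamini-Hochberg adjusted over 10660 genes, and a call needed an adjusted p under 0.05 and 2-fold. Every p-value for ESC, which is 1 line, borrows the spread of the groups with several lines. The p-values measure the spread between these lines, whose origin from separate animals the labels do not give. Where no array of the dimmer group detected a gene, the fold is a bound against each array's floor, the lowest signal of a detected probe. Array number and signal limit the precision.

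Probes were named through their Entrez identifiers in RefSeq (GRCm38.p6), of which 23962 of 23978 matched. The array letters pair arrays: deviations of same-lettered arrays from their line means correlated at 0.398, 0.213 and 0.27, so a fit with the letter as a block was added. The members and the 31 gene lists were chosen with earlier results of these data known. Genes named were, per list, the 4 largest calls in the commoner direction and 2 in the other, a fixed set of stem cell and germline genes, the largest differences over all genes by level and by bound, and the largest differences between the GSC lines. Other called list members are named to account for them.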

Additional observations from a re-analysis of the deposited data

Results flagged for a closer look

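Among the 4 GSC arrays of each of 217 named genes, 2 genes had 1 array far from the other 3. With 4 independent values chance would flag about 1 in 20 genes, more than the 2 of 217 seen. The arrays are technical repeats of 2 lines and not independent, so that rate need not hold here. Cdh1 read 5.093 on array a of GSC line 2, below the 5.378, 5.432 and 5.405 of the other GSC arrays, and ESC read 10.12 and 10.56. Snrpn read 8.949 on the same array, above the 8.63, 8.58 and 8.63 of the others, and ESC read 11.47 and 11.18. Both gaps were at most 0.5 log2, small beside the differences to ESC. These 4 arrays come from 2 lines, so a single array is a technical repeat and not a line.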

How the results depend on the processing

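Of 217 named genes, 187 were called between GSC and ESC, and 113 of these kept direction and call under every alternative tried. Among the calls, 1 turned its direction: Twistnb was -0.449 with the 9 other pluripotent lines in place of ESC. Uncalled genes changed sign in 8 cases: Sall4, Xist and Pfkm with the mean of a gene's probes (0.035, 0.028 and 0.059), Sall4 on the a arrays (0.074), Myc on the b arrays (0.006), Ahnak and Ldhc without GSC line 1 (0.333 and -0.391, against -0.826 and 0.962 without GSC line 2), and Igf2 with the 9 lines in place of ESC (0.222). Of 30 uncalled genes, 21 were called in some alternative, and the cause was not tested. With the mean of a gene's probes, 8 named calls were lost: Cdk1, Inpp5f, Jam2, Tcf7l1, Usp26, Dsg2, Mbd1 and Pfkp. With the 9 other pluripotent lines in place of ESC, 18 named calls were lost or turned.

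Without background correction 1100 genes were called (523 higher, 577 lower in GSC) and 741 were called higher with an offset of 50, and the cause was not tested. With no fold minimum 1749 were called higher. A 4-fold minimum left 649 (247 higher, 402 lower), a share of 38.1% higher against 51.2%. Leaving out 1 line gave 1576 to 2296 calls in all, 830 to 1170 higher and 746 to 1126 lower, with the lowest values without GSC line 1 and 1664 calls without GSC line 2. The array letter as a replicate block, with line as a random block, gave 2611 calls (1294 higher, 1317 lower), and beyond the calls and list counts given with the results it changed none of those named. The authors' deposited values gave 2779 calls, 2077 of them shared, and the GSC and ESC lines alone 2798. With gPSC line 1 and iPSC line 3 left out, a choice made after seeing the data, there were 2387. No setting gave the opposite call at any of the 2187 genes.

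Signal limits what can be said of genes near the floor, where a level below background has no order and a fold is only a bound. ESC is 1 line, so a difference of that line and one of the cell type cannot be told apart beyond the comparison with the 9 other lines.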
